A study of Homo sapiens with 192 samples.

Results

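The genes of the enzymes that write and erase DNA methylation were followed in 4 human colorectal cancer (CRC) cell lines grown in 2D and in 3D. They are the methyltransferase genes DNMT1, DNMT3A and DNMT3B, the cofactor gene UHRF1 and the dioxygenase genes TET1, TET2 and TET3. The 7 genes were found by their Ensembl identifiers among 58243 genes, and all 7 passed the filter on low counts that left 19387 tested genes. The lines HT29, LS513, HCT116 and LS174T were established from human colorectal carcinomas. Each was labelled as 2D growth or 3D growth, and each of the 8 groups so formed had 3 libraries of poly(A)-selected RNA, 24 in all. No drug or genetic change is named for any of these groups. Each line is a single model, and HCT116 was kept in McCoy medium while the others were kept in DMEM, so that medium and line cannot be told apart. How the 3D cultures were made for RNA extraction is not given in the sources used here, and neither is whether the 3 libraries of a group came from separate cultures, so p-values measure the spread between these libraries.

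In mammals most DNA methylation lies on cytosines followed by guanine (CpG). DNMT1 copies it onto the new strand behind the replication fork, and UHRF1 binds hemimethylated CpG sites and brings DNMT1 to them, so both genes are mostly used in cells that replicate their DNA. DNMT3A and DNMT3B place methyl groups on unmethylated DNA (de novo methylation). The TET enzymes oxidise 5-methylcytosine, which is then lost through base excision repair or through replication. Colorectal tumours are known for global loss of methylation together with gains at the CpG islands of some promoters.

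The libraries held between 18723942 and 34277421 counts, so that 3 counts, used as the floor of detection, corresponded to 0.0875 to 0.160 CPM, the usual scaling of counts by library size, and this floor covers counting error only. Levels are given below in CPM on the TMM scale, which corrects each library for its composition, as mean ± SD of 3 libraries. A gene was called when its p-value in edgeR's quasi-likelihood test, two-sided and adjusted over all tested genes by the Benjamini-Hochberg method, was under 0.05. The 9 epithelial markers summed to at least 3477 CPM in all 24 libraries, and EPCAM, CDH1, KRT8, KRT18 and KRT19 each exceeded 18.0 CPM, while the intestinal markers KRT20, CDX2, VIL1 and LGALS4 fell to between 0.0906 and 0.963 CPM in their lowest libraries. Of the fibroblast markers COL1A2 had no count and DCN and LUM at most 2, but COL1A1 was over the floor in 17 libraries and reached 21.8 CPM in HCT116. The endothelial markers PECAM1, VWF and CDH5 had at most 76, 22 and 5 counts. Of the leukocyte markers CD3E had no count and PTPRC at most 2, while CD68 was present in all libraries at 2.08 to 91.8 CPM. The summed leukocyte list, made up almost wholly of CD68, was higher in 3D in every line. It went from 4.77–7.60 to 11.2–15.4 CPM in HT29, from 18.0–20.5 to 61.7–91.8 in LS513, from 9.06–13.1 to 35.9–47.0 in HCT116 and from 2.08–3.83 to 5.04–6.31 in LS174T. Its part in the results below was not tested.

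The maintenance genes DNMT1 and UHRF1 were the members called lower in 3D in all 4 lines. The log2 changes of TET2 and TET3 were also below 0 in each line, but these genes were called in LS174T alone. DNMT1 (ENSG00000130816) lies at chr19:10133345-10231286 on the minus strand and UHRF1 (ENSG00000276043) at chr19:4903080-4962154 on the plus strand (GENCODE 29, GRCh38), and counts come from their exons. DNMT1 shares 83 exonic bases, 0.85% of its exonic length, with S1PR2 on the same strand, and no other member shares exonic bases with another gene.

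DNMT1 stood at 225, 212 and 211 CPM in HT29 grown in 2D, and at 124, 125 and 129 CPM in 3D. The level fell by 41.7%, from 216 ± 7.82 to 126 ± 2.93 CPM (log2 fold change -0.78, SE 0.076, edgeR adjusted p = 6.46e-08). This was its largest change among the lines, and no 3D library reached a 2D library. LS513 gave 279, 285 and 271 CPM in 2D and 192, 183 and 204 CPM in 3D, a change of -0.53 on the log2 scale (SE 0.075, edgeR adjusted p = 1.84e-05). In HCT116 DNMT1 was at 453, 406 and 388 CPM in 2D and 244, 283 and 267 CPM in 3D, a change of -0.65 (SE 0.075, edgeR adjusted p = 1.01e-06). Both lines again showed a gap between the 2D and the 3D libraries. LS174T had the smallest change, from 359, 333 and 332 CPM to 257, 246 and 242 CPM (log2 fold change -0.46, SE 0.075, edgeR adjusted p = 0.000156). The mean change over the 4 lines was -0.61 (SE 0.038, edgeR adjusted p = 1.98e-11). A difference in the size of the fall between lines did not pass the threshold (edgeR interaction test, adjusted p = 0.124) and passed it with DESeq2 (adjusted p = 0.0469).

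UHRF1 stood at 66.3, 66.3 and 76.2 CPM in HT29 grown in 2D and at 44.1, 44.4 and 55.8 CPM in 3D (log2 fold change -0.53, SE 0.12, edgeR adjusted p = 0.00102). In LS513 it was at 48.7, 51.5 and 55.9 CPM in 2D and 35.4, 31.4 and 38.6 CPM in 3D (-0.57, SE 0.12, edgeR adjusted p = 0.0012). These changes were close to each other, and the libraries of the growth conditions did not overlap in either line. In HCT116 it was at 144, 113 and 120 CPM in 2D and 81.4, 92.0 and 93.2 CPM in 3D (-0.50, SE 0.12, edgeR adjusted p = 0.00256). LS174T gave 99.0, 79.8 and 81.7 CPM in 2D and 59.2, 52.8 and 62.1 CPM in 3D (-0.58, SE 0.12, edgeR adjusted p = 0.00128). The fall was thus between 29.2% and 33.2% in all 4 lines, without overlap between 2D and 3D libraries. The mean change was -0.54 (SE 0.059, edgeR adjusted p = 8.08e-08), and the interaction test found no difference between lines (edgeR adjusted p = 0.997). In every alternative of the processing DNMT1 and UHRF1 remained called lower in all 4 lines, but the size of the change varied. The mean change of DNMT1 lay between -0.61 and -0.46, and its change in LS174T between -0.49 and -0.30. For UHRF1 the mean change lay between -0.58 and -0.47.

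**Figure D1:**
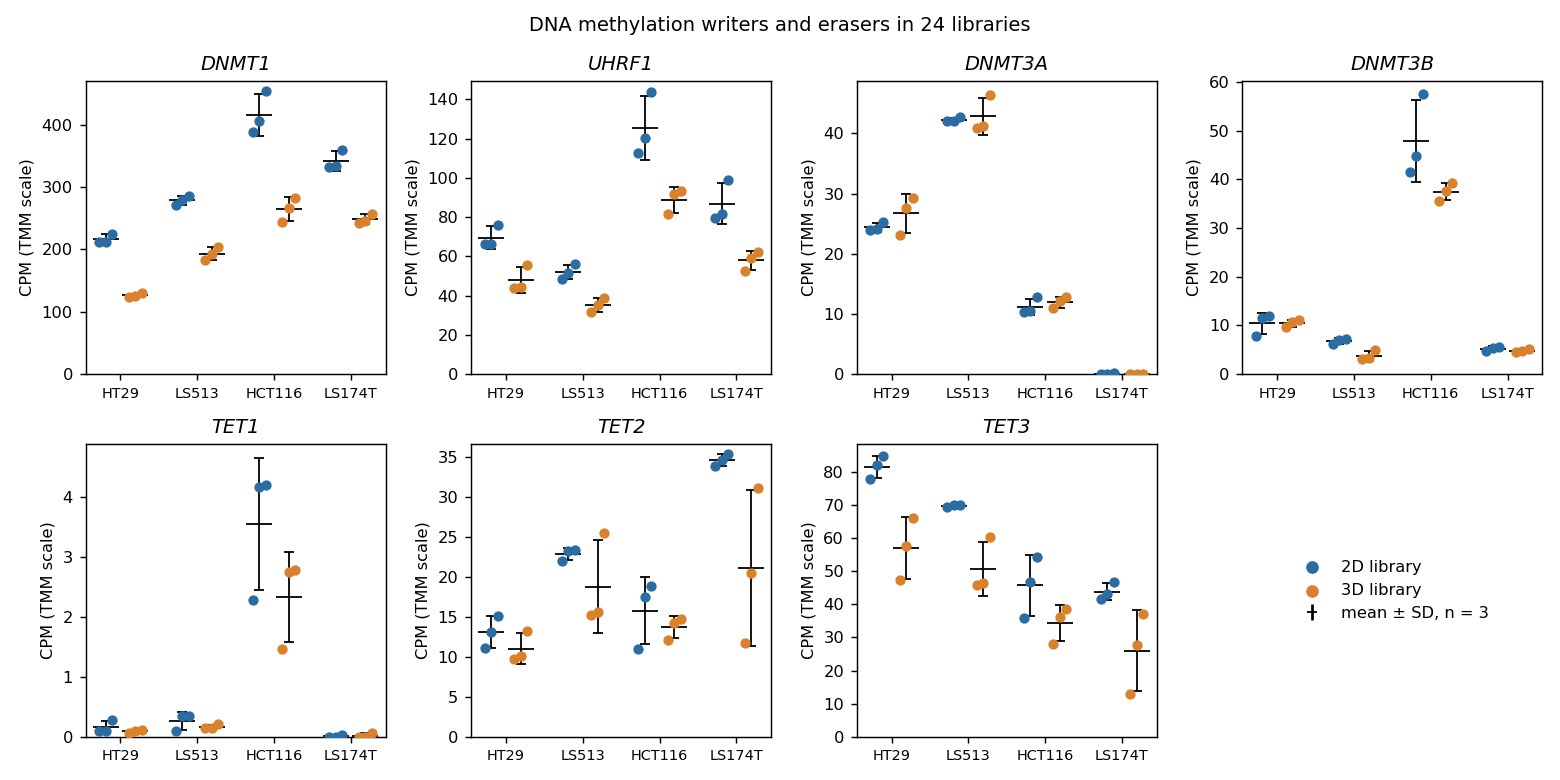
Level of each gene in CPM on the TMM scale (vertical axes start at 0) by cell line, with a point per library, a bar for the mean of 3 libraries and whiskers for the SD. DNMT1 and UHRF1 sit lower in 3D in every line, DNMT3A is near 0 in LS174T, and TET1 stands clear of 0 in HCT116 alone.

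Because the maintenance genes moved together, the 250 bases before their annotated starts are shown (RefSeq, GRCh38.p14, 5′ to 3′ on the strand of the gene). Capitals mark the motif TTTNNCGC (N is any base), searched on both strands (GCGNNAAA on the other strand). It is a loose form of the pattern of E2F factors that drive S phase genes, and not every match fits the stricter pattern. UHRF1 has several annotated starts, of which those with the motif are shown. These RefSeq starts lie inside the GENCODE spans given above, and starts that RefSeq does not list were not searched. The windows are chr19:10194954-10195203 (minus strand) for DNMT1, and chr19:4909251-4909500 and chr19:4909894-4910143 (plus strand) for UHRF1 starts A and B.
DNMT1: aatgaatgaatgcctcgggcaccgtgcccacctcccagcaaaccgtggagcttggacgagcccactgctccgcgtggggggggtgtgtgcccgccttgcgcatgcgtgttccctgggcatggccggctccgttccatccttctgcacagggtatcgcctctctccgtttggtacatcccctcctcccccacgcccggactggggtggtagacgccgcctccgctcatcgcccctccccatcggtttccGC
UHRF1 start A: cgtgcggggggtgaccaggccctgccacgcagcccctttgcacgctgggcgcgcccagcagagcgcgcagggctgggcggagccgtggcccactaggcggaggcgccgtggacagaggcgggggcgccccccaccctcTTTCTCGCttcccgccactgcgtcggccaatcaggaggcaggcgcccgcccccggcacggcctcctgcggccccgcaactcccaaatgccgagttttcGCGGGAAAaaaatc
UHRF1 start B: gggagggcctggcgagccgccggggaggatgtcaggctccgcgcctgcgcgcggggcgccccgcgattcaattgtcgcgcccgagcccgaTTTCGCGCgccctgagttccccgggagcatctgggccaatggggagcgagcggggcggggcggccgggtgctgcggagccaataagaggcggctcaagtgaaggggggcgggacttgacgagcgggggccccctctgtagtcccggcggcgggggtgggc
Over the whole window, which runs 50 bases past the start, UHRF1 start A holds 2 matches, starting at positions -112 and -14, where 0 is the first transcribed base, and start B holds 1 at -160. DNMT1 holds 1 match at -2, on the opposite strand, of which the first bases are the capitals that end its line. Of the 18 windows of the 7 genes, 3 held the motif, and of all 35116 promoters 2418 (6.89%) held it and 0.56% held it 2 times or more. The DNMT1 window had 30 CpG and the UHRF1 windows 36 and 40, against a median of 14 over all promoters. A match is a description of letters and not a site of binding, and none of the files measures binding or methylation.

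S phase genes were lower in 3D in the same libraries. The list used holds 42 genes beside UHRF1, which belongs to it and was left out as a member. Their mean log2 CPM did not overlap between growth conditions in any line and fell from 6.30 to 5.95 in HT29, from 6.32 to 5.84 in LS513, from 6.43 to 6.10 in LS174T and from 6.68 to 6.17 in HCT116. In HT29 21 of the 42 were called lower and 0 higher, with a median log2 change of -0.28 against 0.00 over all tested genes. In LS513 34 were lower and 0 higher (median -0.45 against 0.00), in HCT116 33 and 0 (-0.54 against 0.01), and in LS174T 22 lower and 1 higher (-0.29 against 0.02). The steepest were CLSPN, a checkpoint adaptor, in HT29 (-0.91, edgeR adjusted p = 0.00264) and LS174T (-1.10, edgeR adjusted p = 0.00141), CDCA7 in LS513 (-1.28, edgeR adjusted p = 5.74e-07) and the deubiquitinase gene USP1 in HCT116 (-0.91, edgeR adjusted p = 2.44e-05). The counts of 0 higher were the same for edgeR at an unadjusted p under 0.05 and for DESeq2. GMNN, an inhibitor of replication licensing, was the gene that rose in LS174T (0.33, edgeR adjusted p = 0.0278). Set among these 42 genes, DNMT1 had a lower log2 change than all but 5 in HT29, 16 in LS513, 12 in LS174T and 11 in HCT116, and UHRF1 than all but 14, 12, 8 and 23 in the same order. In HT29 the proliferation marker MKI67 went from 850 ± 28.5 to 367 ± 26.9 CPM (-1.21, edgeR adjusted p = 2.07e-05) and in LS174T from 272 ± 15.7 to 144 ± 38.0 CPM (-0.92, edgeR adjusted p = 0.00118). Its changes of -0.48 in LS513 and -0.45 in HCT116 did not pass (edgeR adjusted p = 0.056 and 0.0643). MKI67 was lowest among the HCT116 2D libraries in replicate 3 (389 CPM) and among the LS174T 3D libraries in replicate 2 (101 CPM). These libraries were also the lowest of their groups in the index of long transcripts described below. The trend with transcript length was not removed from the values of MKI67 or of the S phase list. Fewer cells in S phase and less RNA per cell cannot be told apart in these bulk samples, and the part of the S phase genes in the result was not tested.

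The de novo enzyme DNMT3A (ENSG00000119772, chr2:25227855-25342590, minus strand) differed between lines and was not called between growth conditions. LS513 was highest, at 42.0, 42.1 and 42.7 CPM in 2D and 41.2, 41.0 and 46.4 CPM in 3D. HT29 had 24.1, 23.9 and 25.3 CPM in 2D and 29.3, 23.2 and 27.7 CPM in 3D, and HCT116 10.3, 12.8 and 10.5 CPM in 2D and 12.1, 12.8 and 10.9 CPM in 3D. Thus the 2D and 3D libraries overlapped in each of these lines. The log2 changes were 0.13 in HT29 (95% confidence interval -0.18 to 0.44), 0.02 in LS513 (-0.28 to 0.32) and 0.09 in HCT116 (-0.22 to 0.41), with edgeR adjusted p-values of 0.514, 0.990 and 0.709. In HT29 the gene was called higher (0.49, edgeR adjusted p = 0.00607) when the trend with transcript length described below was removed.

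LS174T had almost no DNMT3A transcript, with 4 counts in all over its 2D libraries, all in replicate 2, and 2 counts over its 3D libraries. No fold change with growth is given at these counts. In 2D the summed counts were 4045 in LS513, 1859 in HT29 and 1113 in HCT116, and scaled to library size the ratio to LS174T was 1081 for LS513 (95% exact interval 422 to 3970), 622 for HT29 (243 to 2286) and 288 for HCT116 (112 to 1057). In 3D the ratios were 1985 (549 to 16400), 1242 (344 to 10264) and 553 (153 to 4572). The intervals cover counting error only and are wide since the low group holds few counts. Every other pair of lines also differed in 2D, with LS513 above HT29 by 0.79 and HT29 above HCT116 by 1.12 on the log2 scale (edgeR adjusted p = 5.95e-05 and 6.13e-07).

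DNMT3B (ENSG00000088305, chr20:32762385-32809356, plus strand) fell in LS513, from 7.05, 6.16 and 7.22 CPM to 3.06, 3.37 and 4.92 CPM. The mean changed from 6.81 ± 0.568 to 3.79 ± 0.994 CPM (log2 fold change -0.84, SE 0.17, edgeR adjusted p = 0.000888), a fall of 44.3% without overlap. In HT29 it stood at 11.5, 7.91 and 11.9 CPM in 2D and 11.0, 9.65 and 10.7 CPM in 3D, with a change of 0.01 (95% confidence interval -0.32 to 0.34). LS174T was alike in this, at 4.72, 5.63 and 5.33 CPM in 2D and 5.09, 4.78 and 4.64 CPM in 3D (-0.11, interval -0.46 to 0.24). In HCT116 the libraries were at 44.8, 57.4 and 41.4 CPM in 2D and 35.6, 39.1 and 37.6 CPM in 3D. They did not overlap, but the change of -0.35 did not pass (edgeR adjusted p = 0.079), while it passed with only the 6 libraries of the line (adjusted p = 0.047) and without 2D replicate 3 (adjusted p = 0.0294). The mean over the lines was -0.33 (SE 0.081, edgeR adjusted p = 0.00173). The change of DNMT3B differed between lines in the interaction test (edgeR adjusted p = 0.0469), and this was the only member of the 7 for which it did, against 17.1% of all tested genes. The call was lost when the replicate number was added as a block (edgeR adjusted p = 0.114) and in 14 of the 24 fits that left out a single library, among them 5 of the 6 without a library of LS513 (edgeR adjusted p from 0.0544 to 0.117).

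Among the erasers TET3 (ENSG00000187605, chr2:73986404-74108176, plus strand) had the highest level per exonic kilobase in each group. In LS174T it was at 41.7, 43.0 and 46.7 CPM in 2D and at 27.8, 12.9 and 37.1 CPM in 3D (log2 fold change -0.75, SE 0.23, edgeR adjusted p = 0.0215). All 3D libraries lay below the 2D libraries, and 3D replicate 2 lay far below the other two. Without that library the change was -0.42 and did not pass (edgeR adjusted p = 0.106), and without 2D replicate 2 or 3 the adjusted p was 0.0502 or 0.0725. HT29 had 78.0, 82.0 and 84.6 CPM in 2D and 47.4, 57.6 and 66.0 CPM in 3D, and LS513 69.9, 70.0 and 69.3 CPM in 2D and 45.7, 46.4 and 60.2 CPM in 3D. Neither line showed an overlap, but the changes of -0.52 and -0.46 did not pass (edgeR adjusted p = 0.0695 and 0.149). HCT116 had 54.4, 46.8 and 36.0 CPM in 2D and 28.1, 38.6 and 36.2 CPM in 3D, which overlap (-0.42, edgeR adjusted p = 0.176). With all genes of at least 1 count in the fit, TET3 was called lower in HT29, LS513 and HCT116 as well (edgeR adjusted p = 0.00172, 0.00359 and 0.00491). With only the 6 libraries of a line it was called in HT29 and LS513 (edgeR adjusted p = 0.00289 and 0.00996) and lost in LS174T (0.156). The mean change over the 4 lines was -0.54 (SE 0.11, edgeR adjusted p = 0.000346), and no difference between lines was called (edgeR adjusted p = 0.851).

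TET2 (ENSG00000168769, chr4:105145875-105279816, plus strand) was called lower in LS174T, from 33.8, 34.5 and 35.3 CPM in 2D to 20.4, 11.7 and 31.1 CPM in 3D (log2 fold change -0.71, SE 0.24, edgeR adjusted p = 0.0405). As for TET3, 3D replicate 2 was the lowest library, and without it the change was -0.41 (edgeR adjusted p = 0.247). The call was also lost without each of 4 other LS174T libraries (2D replicates 1, 2 and 3 and 3D replicate 1), with adjusted p-values from 0.0807 to 0.0977, and with only the 6 libraries of the line (0.150). The other lines had overlapping libraries, with 13.1 ± 1.99 and 11.0 ± 1.92 CPM in HT29, 22.8 ± 0.761 and 18.8 ± 5.84 CPM in LS513 and 15.8 ± 4.21 and 13.7 ± 1.38 CPM in HCT116 in 2D and 3D. Their changes were -0.25, -0.28 and -0.20, with edgeR adjusted p-values between 0.460 and 0.586. The mean over the 4 lines was -0.36 (SE 0.12, edgeR adjusted p = 0.019).

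TET1 (ENSG00000138336, chr10:68560656-68694482, plus strand) was near the floor outside HCT116, and it passed the filter on low counts through that line. HCT116 had 4.20, 4.17 and 2.28 CPM in 2D and 1.46, 2.74 and 2.77 CPM in 3D, which overlap (log2 fold change -0.61, 95% confidence interval -1.28 to 0.06, edgeR adjusted p = 0.168). Over 3 libraries the summed counts were 11 in 2D and 8 in 3D in HT29, 25 and 14 in LS513, and 1 and 2 in LS174T, against 355 and 211 in HCT116. The following ratios are a description, and their intervals cover counting error only, not the spread between libraries. Scaled to library size, HCT116 exceeded HT29 24.9 times in 2D (95% exact interval 13.8 to 50.4) and 26.1 times in 3D (13.0 to 61.2), and it exceeded LS513 13.7 times (9.15 to 21.5) and 14.2 times (8.28 to 26.4).

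The TET genes have long transcripts, and long transcripts as a class were lower in 3D. The longest annotated transcripts of TET1, TET2, TET3 and DNMT3A have 9288, 10166, 11388 and 9501 bases, against 5408 for DNMT1, 4336 for DNMT3B and 4309 for UHRF1. Over the 556 tested genes with a longest transcript of 9 to 12 kb the median log2 change was -0.33 in HT29, -0.18 in LS513, -0.30 in LS174T and -0.17 in HCT116, and over those of 4 to 6 kb it was between -0.09 and -0.04. A long-transcript index was taken as the median log2 CPM of the longest 10% of transcripts minus that of the rest. It went from 1.97 ± 0.0395 to 1.45 ± 0.103 in HT29, from 1.83 ± 0.0135 to 1.58 ± 0.125 in LS513, from 1.68 ± 0.234 to 1.35 ± 0.0772 in HCT116 and from 1.86 ± 0.0261 to 1.43 ± 0.333 in LS174T. The lowest index of all, 1.07, belonged to LS174T 3D replicate 2, the library with the lowest TET3 of all. Among the 2D libraries the lowest, 1.41, belonged to HCT116 replicate 3, which had the lowest TET1, TET2 and TET3 of its group. With the length trend of each library removed, the mean change was -0.24 for TET3 (edgeR adjusted p = 0.00446) and -0.09 for TET2 (0.399), and the changes of DNMT1 and UHRF1 were still called in every line. In LS174T TET3 was still called (-0.42, edgeR adjusted p = 0.0318) and TET2 was not (-0.41, 0.061). RNA integrity was not measured in the files used here, and its part in the TET changes was not tested.

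**Figure D2:**
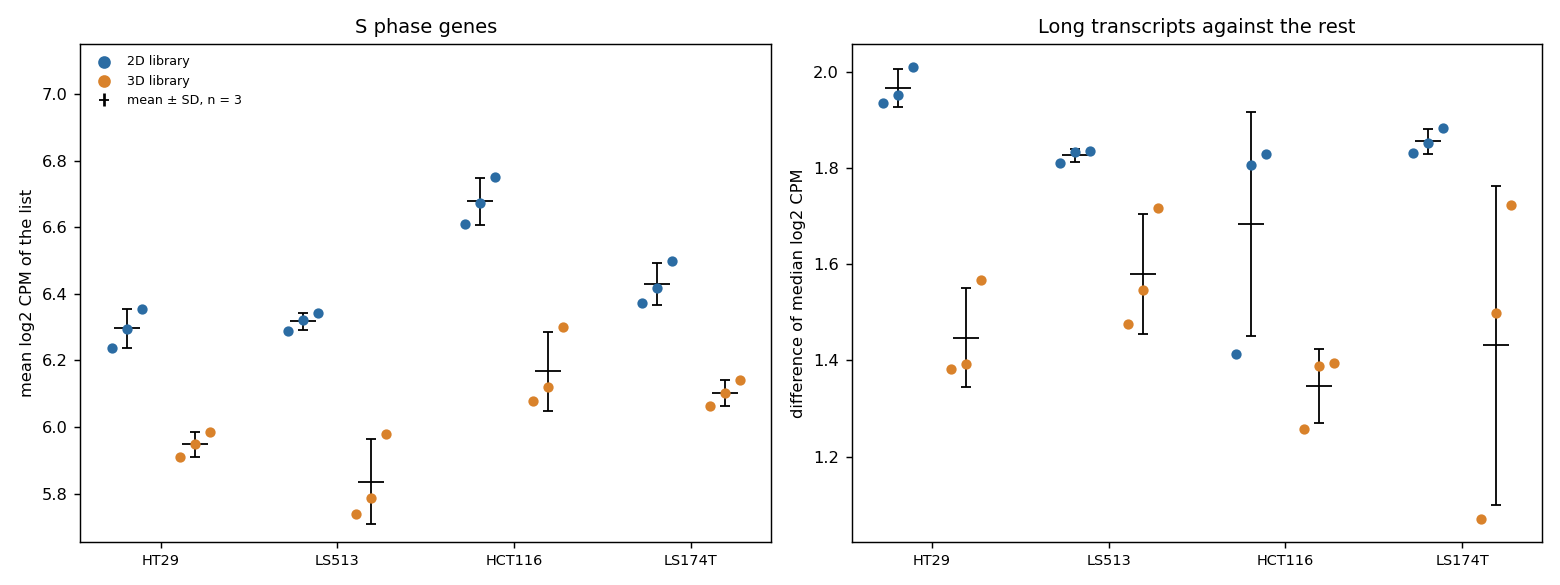
Mean log2 CPM of the 42 S phase genes (left) and the long-transcript index, the median log2 CPM of the longest 10% of transcripts minus that of the rest (right), by cell line, with a point per library and the mean ± SD of 3. Neither axis starts at 0. Both measures are lower in 3D in each line, and LS174T 3D replicate 2 has the lowest index, at 1.07.

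Counted over the 7 genes, none was called higher in any line by the main edgeR fit or by DESeq2. At an unadjusted p under 0.05 the main edgeR fit had 0 higher as well. With the length trend removed, edgeR called DNMT3A higher in HT29, as given above. The shares among all tested genes give the background. In HT29 2 members were called lower and 0 higher, where 19.6% of tested genes were lower and 21.1% higher. LS513 had 3 lower and 0 higher, against 9.9% and 13.7%, and HCT116 2 and 0, against 12.3% and 16.8%. LS174T had 4 lower and 0 higher, against 9.15% and 13.1%, of which TET2 and TET3 depended on single libraries as given above. For the mean of the 4 lines 5 were lower and 0 higher, against 23.9% and 26.6%. The means of DNMT3A and TET1 rest in part on lines at the floor and are not given. The median log2 change of the 7 was -0.52 in HT29, -0.53 in LS513, -0.58 in LS174T and -0.42 in HCT116 (-0.38 in HT29 without TET1 and -0.58 in LS174T without DNMT3A and TET1, which are at the floor there), where that of all tested genes lay between 0.00 and 0.02.

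**Figure D3:**
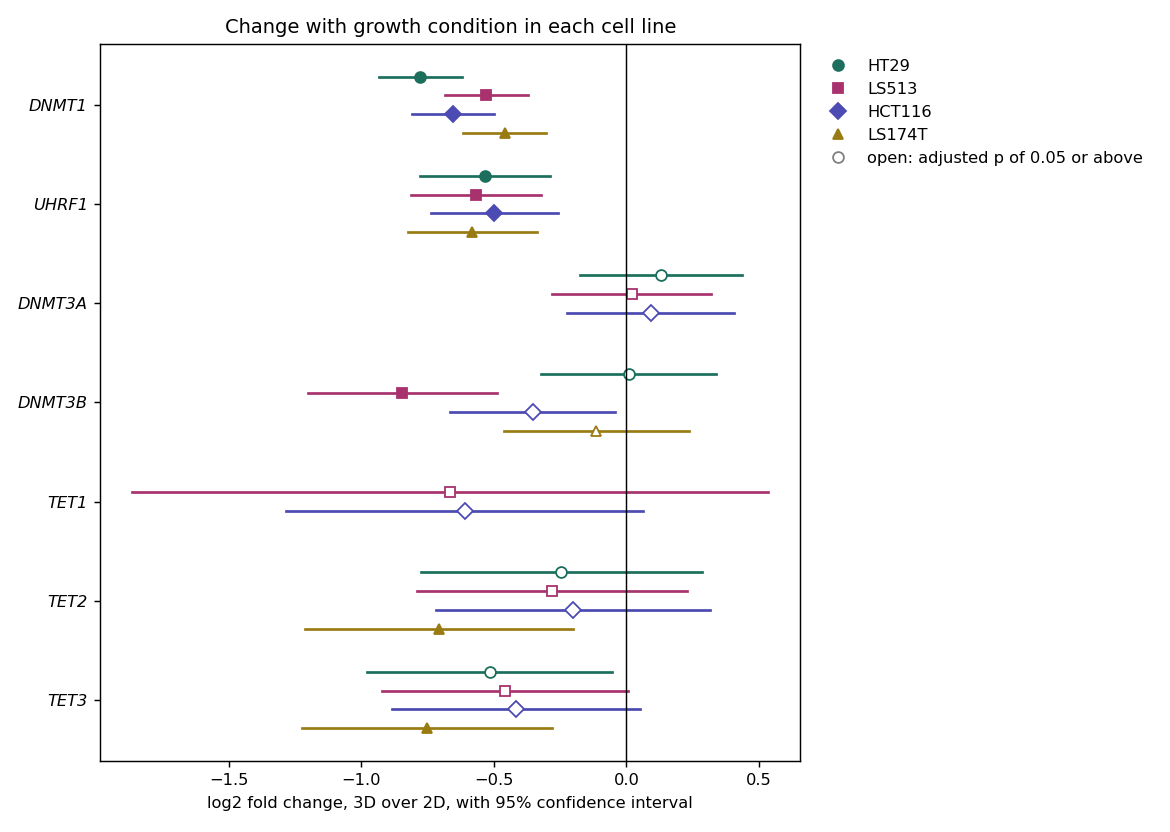
Log2 fold change of each gene, 3D over 2D, in each cell line (horizontal axis) with its 95% confidence interval from edgeR, where filled symbols passed an adjusted p of 0.05 and open ones did not. DNMT1 and UHRF1 lie left of 0 with filled symbols in all 4 lines, and pairs of groups at the floor are left out (DNMT3A in LS174T, TET1 in HT29 and LS174T).

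The lines were compared in 2D. TET1 passed the filter on low counts through HCT116 alone and is left out of the counts. Of 36 comparisons of the other 6 members between 2 lines, 31 were called. By pair these were 6 of 6 for HT29 and LS174T, where 64.6% of all tested genes were called, and 5 of 6 for HT29 and LS513 (60.6%), HT29 and HCT116 (68.8%), LS513 and HCT116 (68.3%), LS513 and LS174T (57.6%) and HCT116 and LS174T (68.3%). The members' share is thus to be read against a background in which most genes differed. With the replicate number added as a block, 22 of the 36 were called. That fit compares the lines at the lowest replicate number of each line and not at their 2D means. It thus tests another difference, and the lower count does not show what the replicate number did to the line differences.

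DNMT1 in 2D fell in the order HCT116, LS174T, LS513 and HT29, and each neighbour differed (edgeR adjusted p = 0.00182, 0.00167 and 0.000184). UHRF1 had the order HCT116, LS174T, HT29 and LS513, again with each neighbour different (edgeR adjusted p = 0.000321, 0.0199 and 0.00364). In 3D the DNMT1 libraries of HCT116 and LS174T overlapped, at 244 to 283 and 242 to 257 CPM. DNMT3B was highest in HCT116, by 2.20 on the log2 scale over HT29 (edgeR adjusted p = 1.71e-11). HT29 was in turn above LS513 (0.61, edgeR adjusted p = 0.00236), while LS513 and LS174T did not differ past the threshold (0.38, edgeR adjusted p = 0.0531). TET2 was highest in LS174T, above LS513 by 0.60 (edgeR adjusted p = 0.0392), and the neighbours LS513 and HCT116 (edgeR adjusted p = 0.0612) and HCT116 and HT29 (0.347) were not called different. TET3 fell into HT29 and LS513 (edgeR adjusted p = 0.402 between them) above HCT116 and LS174T (0.821 between them), and LS513 exceeded HCT116 by 0.61 (0.0197). The fit with the replicate block compares the lines at their lowest replicate number, which is not the difference of their 2D means. Some neighbours called here did not pass in that edgeR fit. For DNMT1 they were HCT116 and LS174T (edgeR adjusted p = 0.153) and LS513 and HT29 (0.0616). For UHRF1 they were HT29 and LS513 (0.0501), for TET2 LS174T and LS513 (0.0789) and for TET3 LS513 and HCT116 (0.151). Thus no line was highest for all members, since HCT116 led in DNMT1, UHRF1, DNMT3B and TET1, LS513 in DNMT3A, LS174T in TET2 and HT29 in TET3.

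Levels of different genes were compared per kilobase of exonic length. DNMT1 led in all 8 groups, from 12.9 ± 0.299 CPM per kb in HT29 grown in 3D to 42.4 ± 3.45 in HCT116 grown in 2D, and UHRF1 came next, from 6.83 ± 0.698 to 24.4 ± 3.16. TET3 came after them outside HCT116, where DNMT3B took this place at 10.3 ± 1.83 CPM per kb in 2D and 8.09 ± 0.387 in 3D. Divided by the longest transcript instead, the first 2 places were the same in all 8 groups, and DNMT3A came before TET3 in LS513 grown in 3D. The make-up of the methyltransferase transcripts was taken from the same levels. In HT29 DNMT1 was 83.8% ± 1.62 of the summed CPM per kb of the 3 methyltransferase genes in 2D and 74.2% ± 1.84 in 3D, while DNMT3A went from 7.72% ± 0.366 to 12.8% ± 1.24. In LS513 DNMT3A went from 10.5% ± 0.260 to 14.8% ± 0.278 and in HCT116 from 1.74% ± 0.214 to 2.76% ± 0.248, each without overlap between growth conditions. The level of DNMT3A was not called in HT29, LS513 or HCT116, while DNMT1, the largest part of the sum, was called lower. These shares are thus not a separate result for DNMT3A. DNMT1 made up 96.8% ± 0.401 in LS174T in 2D and 96.0% ± 0.0579 in 3D. TET3 was the largest part of the TET transcripts in every group, from 61.9% ± 2.52 in LS174T grown in 3D to 89.1% ± 1.40 in HT29 grown in 2D. Divided by the longest transcript, its share in LS174T was 53.1% ± 0.956 in 2D and 52.0% ± 2.67 in 3D. By that measure TET2 exceeded TET3 in LS174T 3D replicate 2 (50.5% against 49.5%). Within a line an exact permutation test of 3 libraries against 3 cannot go below p = 0.1, and the shares were not tested over the lines together.

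**Figure D4:**
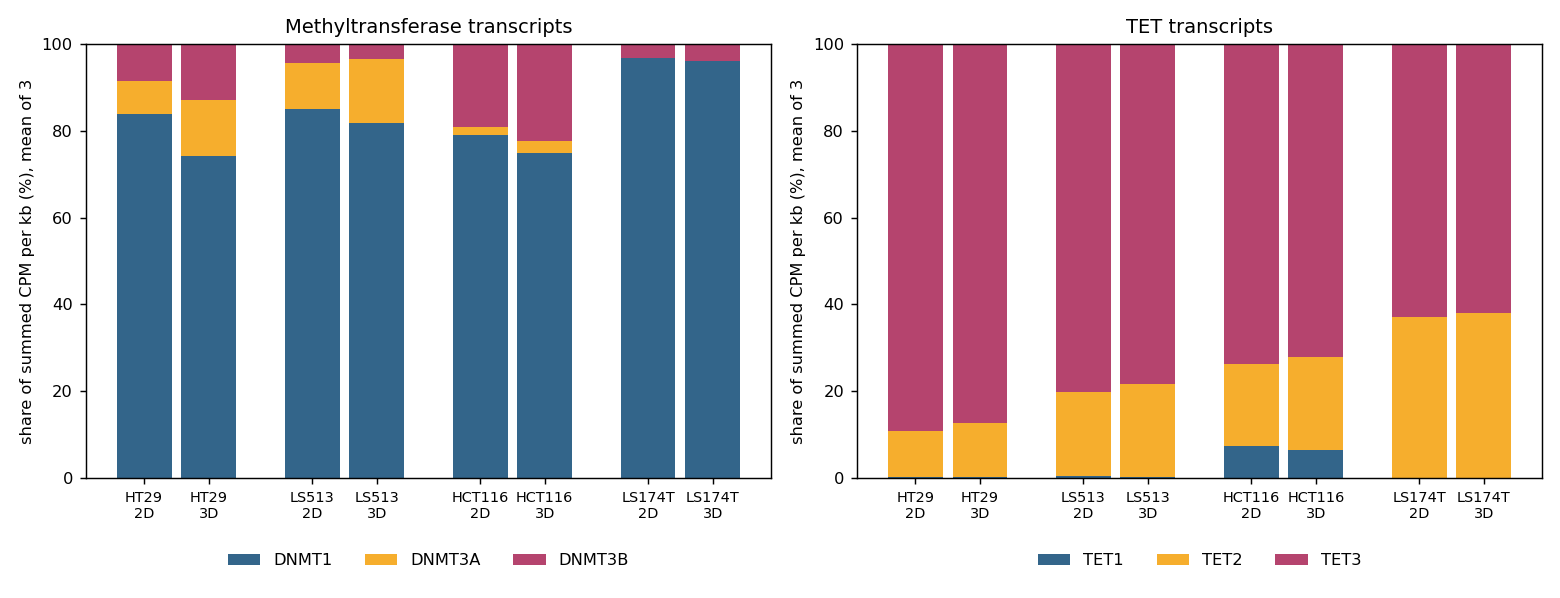
Share of each gene in the summed CPM per exonic kilobase of the methyltransferase genes (left) and of the TET genes (right) in each group, as the mean of 3 libraries in percent (bars start at 0). DNMT1 takes 74.2% to 96.8% on the left, and TET3 61.9% to 89.1% on the right.

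The partners of the methyltransferases that were called were lower in 3D. Of 14 genes 12 were tested (DNMT3L and DPPA3 had at most 1 count in a library). Of these 6 were called lower in HT29, 8 in LS513, 6 in LS174T and 9 in HCT116, and 0 were called higher in any line, where edgeR at an unadjusted p under 0.05 and DESeq2 also had 0. Their median log2 changes were -0.40, -0.47, -0.30 and -0.44 in this order of lines, against 0.00, 0.00, 0.02 and 0.01 over all tested genes. In the same order 19.6%, 9.9%, 9.15% and 12.3% of all tested genes were called lower. Called higher were 21.1%, 13.7%, 13.1% and 16.8% of all tested genes. QSER1, which protects sites from de novo methylation, fell from 121 ± 14.4 to 45.7 ± 7.04 CPM in HT29 (-1.40, edgeR adjusted p = 0.000307) and was the steepest in HCT116 (-1.06, 0.00463) and LS174T (-0.93, 0.0165). CDCA7, which works with the remodeller HELLS to let methylation reach closed chromatin, fell from 134 ± 10.2 to 55.4 ± 9.72 CPM in LS513 (-1.28, edgeR adjusted p = 5.74e-07). PCNA, HELLS and CDCA7 belong to the S phase list as well. QSER1 spread widely in HCT116 grown in 2D (119 ± 35.5 CPM) and in LS174T grown in 3D (43.8 ± 19.4 CPM). These groups hold the libraries named above for a low long-transcript index. The trend with transcript length was not removed from the values of the partners or of the lists below.

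Genes of the later steps of demethylation went both ways. Of 17 genes 8 were called higher and 4 lower in HT29 (median 0.50), 5 and 2 in LS513 (0.06), 4 and 4 in HCT116 (0.09) and 6 and 2 in LS174T (0.19), beside the medians and the shares of all tested genes given above. IDH2, which makes the 2-oxoglutarate that TET enzymes use, had the largest rise in HT29, from 37.8 ± 2.13 to 91.7 ± 12.9 CPM (1.28, edgeR adjusted p = 9.93e-08), and among genes of at least 5 CPM in HCT116 (0.89, edgeR adjusted p = 1.94e-05). In LS513 the largest rise among such genes was that of the stress gene GADD45B (1.97, edgeR adjusted p = 0.0038), from 1.76 ± 0.042 to 6.92 ± 2.58 CPM. It was also the largest in LS174T (1.26, edgeR adjusted p = 0.0313), where the 3D libraries spread widely (16.6 ± 14.2 CPM). OGT, an O-GlcNAc transferase that binds TET proteins, had the largest fall in HT29 (-1.0, edgeR adjusted p = 0.000247) and HCT116 (-0.59, edgeR adjusted p = 0.0223). The glycosylase gene NEIL2 had the largest called fall in LS513 (-0.38, edgeR adjusted p = 0.0126) and LS174T (-0.31, edgeR adjusted p = 0.0411).

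**Figure D5:**
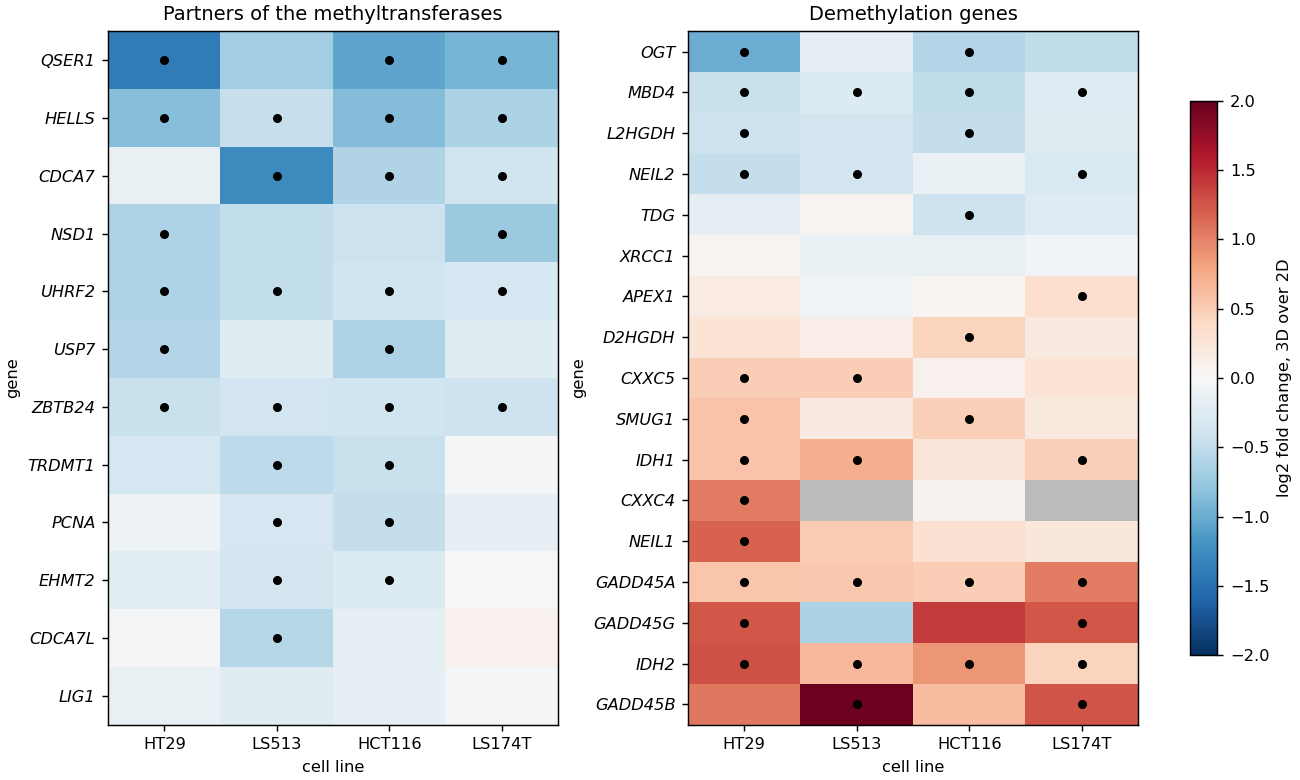
Log2 fold change, 3D over 2D, of the tested partner genes (left) and demethylation genes (right) in each cell line, as colour from -2 (blue) to 2 (red). Dots mark an adjusted p under 0.05 and grey marks groups at the floor. All dots on the left are on blue cells, and those on the right are on both colours.

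Among the 7 readers of methylated DNA, 2 were called lower in HT29, 1 higher in LS513, 1 lower in LS174T and 2 lower in HCT116, with medians of -0.03, -0.09, -0.08 and -0.17. Over all tested genes the shares in these directions were 19.6%, 13.7%, 9.15% and 12.3%, so that 1 or 2 of 7 is near the background. ZBTB38 fell in HT29 (-0.86, edgeR adjusted p = 0.00121), and MBD2 rose in LS513 (0.34, edgeR adjusted p = 0.00096). Of the 10 genes that supply the methyl donor S-adenosylmethionine, 4 were lower and 2 higher in HT29, 4 and 1 in LS513, 3 and 1 in LS174T and 3 and 1 in HCT116, with medians of -0.16, -0.24, -0.03 and -0.12. The background was 19.6% lower and 21.1% higher in HT29, 9.9% and 13.7% in LS513, 9.15% and 13.1% in LS174T and 12.3% and 16.8% in HCT116. MAT2A, the enzyme that makes the donor, had the largest fall of the list in each line, from -0.69 in HCT116 (278 ± 11.2 to 172 ± 7.38 CPM, edgeR adjusted p = 0.000216) to -0.47 in LS513 (edgeR adjusted p = 0.00678). In LS174T the largest rise was that of SHMT2, a mitochondrial enzyme of serine and folate metabolism, from 311 ± 12.9 to 677 ± 73.8 CPM (1.12, edgeR adjusted p = 6.26e-09).

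Most germline genes that promoter methylation keeps silent in somatic cells were at or near the floor. Of 10 genes 8 were not tested, and of these DAZL, MAEL, BRDT and ASZ1 had no count in any library, while the others had at most 7 counts. STK31 was highest at 0.702 ± 0.297 CPM in LS174T grown in 3D and was called in no line by edgeR or DESeq2 (unadjusted p under 0.05 by edgeR in HT29). TEX101, named after its values were seen, was called higher by edgeR in LS513 (2.05, adjusted p = 0.00236), though DESeq2 called 0 genes of the list, and it went from 0.178 ± 0.0695 to 0.750 ± 0.148 CPM. It was also called in LS174T, but with at most 2 counts in a library no fold is given. No library of HT29 or HCT116 held a count of TEX101.

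The 3 genes most like each member were found by Pearson correlation of log2 CPM over the 24 libraries, which share lines and growth conditions, so that r describes the pattern and is not tested. For DNMT1 these were PFAS (r = 0.97), SYNCRIP and EYA3, for UHRF1 TYMS (0.96), DFFA and MCM10, and for DNMT3B PPP4R4 (0.97), SEMA6B and BUB3. For DNMT3A they were FRG1CP, RBPMS and CEP126 (0.99 each), for TET1 DPYSL3 (0.98), MYO5A and ZBTB10, for TET2 CCSER2 (0.94), ZNF852 and KCTD20, and for TET3 STK4 (0.96), VANGL1 and ABI2. DNMT3A was near the floor in LS174T and TET1 outside HCT116, so their r values mostly set these lines against the rest. Among the members the highest r was that of DNMT3B and TET1 (0.89), both highest in HCT116. As TET1 was near the floor elsewhere, this r mostly sets HCT116 against the other lines. The next was that of DNMT1 and UHRF1 (r = 0.75).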

How the data were processed

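RNA from 4 CRC cell lines in 2D and 3D was measured as raw counts. The authors deposited counts per gene without normalization for each technical replicate, made from trimmed 75 bp single reads of stranded libraries that were aligned with STAR to the human genome and counted on exons with HTSeq-count (HTSeq 0.5.3, Trim Galore 0.4.1, per the submitters' processing notes). These notes name hg19 while the paper's methods name an Ensembl annotation of GRCh38, and 99.55% of the gene identifiers are in GENCODE 29, so positions printed here come from GENCODE 29 on GRCh38 and promoter sequences from RefSeq GRCh38.p14. The 8 technical replicates of a library were summed after their counts were checked (chi-square per degree of freedom 1.00 to 1.03, against 3.07 to 14.9 between libraries of a group). For HT29 3D replicate 4 technical replicate d was not analysed here and 7 were summed. Library totals and the floor of 3 counts are given in the report.

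Groups and replicate numbers came from the labels. Counts were fitted in R 4.3.3 with edgeR 4.0.16 (filterByExpr, TMM, a robust quasi-likelihood model with 1 coefficient per group over the 24 libraries), with Benjamini-Hochberg adjustment over all tested genes. Growth was compared within lines, as the mean of the lines and by interaction, and lines were compared in 2D. The 7 members and the gene lists were chosen with earlier results of these data known. All 7 members were named, and of each other list the called genes with the largest rise and fall per line among those of at least 5 CPM in the higher group, with the 3 genes most like each member and MKI67. Some list genes that this rule would name are not reported here. Same-numbered 2D and 3D libraries did not deviate together (correlations from -0.146 to 0.0938), so the fit has no pairing. No fold change is given where neither group had over 3 counts in each library. The alternatives were DESeq2 1.42.0, its size factors, all genes with at least 1 count, the 6 libraries of a line, leaving out each library or technical replicate d, a replicate block, exonic length by the longest transcript and, added after seeing the data, removal of each library's trend with transcript length. The fits were tested on simulated data.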

Additional observations from a re-analysis of the deposited data

Results flagged for a closer look

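The growth effect of DNMT3B differed between the 4 lines in the interaction test (edgeR adjusted p = 0.0469), with log2 changes from -0.84 in LS513 through -0.35 in HCT116 and -0.11 in LS174T to 0.01 in HT29. Leaving out each of the 24 libraries in turn gave edgeR adjusted p-values from 0.00648, without LS513 3D replicate 3, to 0.117, without LS513 3D replicate 1, and 14 of the 24 did not pass. It was lost with the replicate block as well (0.114) and kept with DESeq2 (0.0118), with all genes of at least 1 count (0.01) and with the length trend removed (0.0156).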

How the results depend on the processing

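No growth change of a member reported as called turned its direction in the alternatives run. The directions of the other named genes and of the line comparisons were not followed in them. In LS174T the members called were 2 with only its 6 libraries and 2 to 4 when single libraries were left out, against 4 in the fit of all libraries, since TET2 and TET3 were lost. Genes called in LS174T were 1648 with its 6 libraries and 2083 to 6038 without single libraries, against 4305. Without single libraries they were 2784 to 5221 in LS513 (4571 with all) and 3747 to 5986 in HCT116 (5637 with all). Members whose growth effect differed between lines were 2 with DESeq2 (DNMT1 and DNMT3B), 0 with the replicate block and 0 or 1 without single libraries, against 1. With the replicate block the genes called were 5415 in HT29, 3635 in LS513, 3273 in LS174T and 4614 in HCT116. The comparisons of lines called, TET1 included, were 26 in place of 36, and the block changed no other call of a member. With the block the lines are compared at their lowest replicate number and not at their 2D means, so that count belongs to another contrast. In HT29, 2D replicate 2 and 3D replicate 4 share their number with no library of the other growth condition. They thus do not enter the estimate of its growth effect with the block. Equal numbers share no stated culture or day, so for growth the block shows only the effect of the number.

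Changes that were not called and lay near 0 changed sign. For DNMT3B in HT29 the value was -0.18 with the replicate block, where only libraries of equal number entered the estimate. It was -0.02 without technical replicate d and -0.12 to 0.14 without single libraries. For DNMT3A in LS513 it was -0.00085 without technical replicate d and -0.040 to 0.046 without single libraries. For TET2 it was 0.13 in HT29 and 0.033 in HCT116 with the length trend removed. The cause was not tested. Per kilobase of the longest transcript 35 of the group levels moved by more than 1 SD, and the order of the first 2 genes was the same. Depth limits what can be said of TET1 outside HCT116 and of DNMT3A in LS174T.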
